A study of Mus musculus with 16 samples.

Results

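Interleukin 1 is a cytokine that macrophages release early in inflammation, and the active form of interleukin 1 beta is controlled by an enzyme complex, the inflammasome. The genes described here are 9 members of that system, measured on 13 microarray probes of the 55681 in the whole array. Il1a and Il1b encode the cytokines interleukin 1 alpha and beta, Il1rn encodes the antagonist that occupies the receptor without signalling, and Il18 encodes a further cytokine of the family. Nlrp3 encodes a sensor protein, Pycard the adaptor ASC, Casp1 the protease that cleaves the interleukin 1 beta and Il18 precursors, and Casp4 (also called caspase-11) a protease that binds LPS inside the cell. Il1rap encodes the accessory chain of the interleukin 1 receptor. The members were taken by gene name, so that every probe whose name in the scanner files equals a member was included. Of the 34779 genes or transcripts on the array, 15877 were bright enough to be tested, and these included 7 of the 9 members.

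In the usual model, bacterial lipopolysaccharide (LPS) acts through its receptor at the cell surface to raise transcription of Il1b and Nlrp3, a step called priming. A later signal then makes NLRP3 assemble with ASC and caspase-1, which cuts the cytokine precursors to their active form. RNA levels bear on priming and not on assembly or cleavage. RAW264.7 cells are widely described as lacking the ASC protein, which limits them as a model of the later steps.

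The RNA came from RAW264.7 cells, a mouse macrophage-like tumour line, starved in 0.5% serum. Cells of the 4 conditions received 20 µM cordycepin, an adenosine analogue that inhibits polyadenylation, or its vehicle DMSO for 60 min, and then either 1 µg/ml LPS or no LPS for a further 60 min, 120 min in all. The conditions are named DMSO, cordycepin, LPS+DMSO and LPS+cordycepin, each with 4 replicates and 1 array per replicate, 16 arrays in all. Per the labels, replicates of the same number were wells of one plate collected on one day, with a different day for each number. By the slide barcodes of the scans, replicates 1 and 2 shared slide 1 while 3 and 4 shared slide 2.

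Between 37.1% and 51.2% of the spots per array were well above background by the scanner software's own test, with 21999 to 26055 such spots on slide 1 and 27151 to 30362 on slide 2. All 8 macrophage markers examined, among them Cd68, Csf1r and Adgre1, were well above background on 16 of 16 arrays. Of 20 markers of other cell types, 8 were above background on no array and 4 (Cd3e, Cd4, Kdr and S100a8) on all 16, and their part in the results below was not tested. DMSO replicate 2 correlated least with the other arrays of its condition (mean r = 0.982 over the genes tested, against 0.985 to 0.994 for the other 15 arrays). Member results that turn on it are given with and without it. Those of further genes of the system are given with it only, apart from the ranges for Gbp2.

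The probes that carry the results are shown by their first 30 of 60 bases, with positions on mm9 as the array files give them. Exon and UTR annotation of that build was not used here. The Il1b probe is the only one printed in 10 copies per array. The Nlrp3 probes start 1427 bases apart and so do not overlap, though they read the same RNA samples on the same arrays. The Casp4 probes overlap by 55 bases, of which the 25 in capitals are seen here. The Il1rap probes are shown because each was designed to a different transcript.
Il1b, chr2:129190347-129190406, minus strand, NM_008361: aggttcctataatatggatgagaattttta
Nlrp3 probe 1, chr11:59379981-59380040, plus strand, NM_145827: atatcctcagtgggcaaggtgttccctctt
Nlrp3 probe 2, chr11:59378554-59378613, plus strand, NM_145827: cggccttacttcaatctgttgttcagctct
Il1rn, chr2:24205094-24205153, plus strand, NM_001039701: aacacaccggaagagccccttatagtcacg
Casp4 probe 1, chr9:5336658-5336717, plus strand, NM_007609: ccagcCTAAGCAACACAGTGGGATTCTGTT
Casp4 probe 2, chr9:5336663-5336722, plus strand, NM_007609: CTAAGCAACACAGTGGGATTCTGTTccata
Il1rap, chr16:26701498-26701557, plus strand, NM_134103: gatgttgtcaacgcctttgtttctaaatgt
Il1rap, chr16:26716515-26716574, plus strand, NM_008364: catacatctttcagtagtcattggcaaaat
Il1rap, chr16:26725291-26725350, plus strand, ENSMUST00000096129: ccattttctttaaccagctcttccttgatc

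Signals are given as scaled log2 signals, the log2 of the processed spot intensity after all arrays were set to a common 75th percentile. They compare conditions for one probe, and levels of different probes were not compared. A gene was called raised or lowered in a comparison when its Benjamini-Hochberg adjusted p over all 15877 genes was under 0.05 and its change at least 2-fold. An array measures RNA of the whole culture, so fewer responding cells and less RNA per cell cannot be told apart.

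After 60 min, LPS raised Il1b, Nlrp3 and Il1rn and no other tested member (3 of 7 called raised, none lowered, against 2.09% of all genes called raised, limma). In LPS-treated cells, cordycepin lowered Il1b and Nlrp3 (2 of 7 called lowered, against 1.52% of all genes). LPS still raised Il1b and Nlrp3 in the presence of cordycepin (2 of 7 called raised, against 1.69% of all genes). Without LPS, cordycepin changed 0 of the 6 members measurable there past the threshold, where 5.55% of all genes were called either way (limma). Il1b was not well above background on any array without LPS and is left out of that count, while the share over all genes was not limited in that way. Casp1, Casp4, Il18 and Pycard were called in none of the comparisons. Il1b entered the test only through the LPS-treated arrays, where it is high, so its place among the members called raised by LPS adds nothing to their count.

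The signal of Il1b, the main secreted interleukin 1 of macrophages, was 10.73, 11.41, 11.39 and 11.82 in LPS+DMSO replicates 1 to 4. In LPS+cordycepin it was 8.93, 9.42, 9.78 and 10.30. Every LPS+cordycepin array lay below every LPS+DMSO array, and all 8 LPS-treated arrays were well above background. The arrays without LPS gave 3.97, 4.39, 3.06 and 3.02 (DMSO) and 3.59, 3.90, 3.96 and 4.86 (cordycepin), none of them well above background. An array counted as well above background when most copies of the probe on it were. Single copies were so on DMSO replicate 3 (1 copy) and cordycepin replicate 4 (2 copies). The measured means without LPS were 3.61 ± 0.68 (DMSO) and 4.08 ± 0.55 (cordycepin), and those with LPS were 11.34 ± 0.45 (LPS+DMSO) and 9.61 ± 0.58 (LPS+cordycepin, SD, n = 4). With the dimmest signal well above background on each array as the limit, Il1b was at least 65.2-fold higher in LPS+DMSO than in DMSO. It was at least 20.4-fold higher in LPS+cordycepin than in cordycepin. The adjusted p values of 8.39e-10 and 7.29e-08 (limma) belong to the fitted changes of 7.73 and 5.53. Those changes are set against signals not well above background, and their p values do not test these limits. These limits hold for the scaled signals used here and not for every background correction. With normexp background correction the fitted rise was 4.67 on the log2 scale (25.4-fold) in DMSO and 3.04 (8.24-fold) in the presence of cordycepin. With the authors' values it was 5.68 (51.3-fold) and 3.91 (15.02-fold), so the size of the Il1b rise depends on how signals near background are treated, while its call did not change. The rise in DMSO was 6.89 on slide 1 and 8.57 on slide 2.

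In LPS-treated cells, cordycepin changed Il1b by -1.73 on the log2 scale (standard error 0.37, 95% confidence interval -2.52 to -0.95, adjusted p = 0.0027, limma), which is 3.32-fold lower. The differences within a day were -1.81, -1.98, -1.62 and -1.52, lower on 4 of 4 days. Their mean was -1.90 on slide 1 and -1.57 on slide 2. The copies of the probe on an array differed much less than the days did. Their SD was 0.05 to 0.10 on the LPS-treated arrays, against an SD of 0.45 between LPS+DMSO arrays. Of the Il1b spots, 7 over all arrays were left out as outliers, with at least 8 of 10 kept on each array. None was missing from any other member.

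Nlrp3, the inflammasome sensor, was well above background in every condition on its brighter probe. Its signal was 8.14, 7.36, 7.24 and 7.46 in DMSO and 10.87, 11.02, 10.75 and 11.38 in LPS+DMSO. The groups did not overlap, and the rise with LPS was 3.45 on the log2 scale (standard error 0.33, adjusted p = 2.73e-06, limma), a change of 10.96-fold. In LPS+cordycepin the signal was 9.08, 8.67, 9.93 and 10.18, between the 2 other groups and overlapping neither. Against LPS+DMSO this was a log2 change of -1.54 (standard error 0.33, 95% confidence interval -2.25 to -0.83, adjusted p = 0.0032, limma), or 2.90-fold lower.

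In cordycepin without LPS the Nlrp3 signal was 7.55, 6.37, 7.60 and 7.12. These values overlapped with those of DMSO (change -0.39, 95% confidence interval -1.10 to 0.32, adjusted p = 0.51, limma). From that level, the rise with LPS was 2.30 (standard error 0.33, adjusted p = 0.00024, limma), 4.94-fold. The order of the conditions was thus cordycepin, DMSO, LPS+cordycepin and LPS+DMSO, and the lowest pair did not differ beyond their spread.

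Slide and culture day cannot be told apart here, as each slide held different days. The difference in Nlrp3 with cordycepin in LPS-treated cells varied between slides, which was not tested. Within a day it was -1.79 and -2.35 on slide 1 and -0.82 and -1.20 on slide 2, with slide means of -2.07 and -1.01, and all 4 days were below 0. The second Nlrp3 probe gave -1.59, -1.35, -1.07 and -0.60 on the same days, again lowest on slide 1. Fitted on its own, it changed by -1.15 (standard error 0.24, adjusted p = 0.00208 over all probes, limma) with cordycepin, and LPS in DMSO changed it by 3.16 (standard error 0.24, adjusted p = 1.98e-07 over all probes, limma). Both probes thus passed the threshold in both comparisons. The second probe was not well above background in cordycepin replicate 2.

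**Figure D1:**
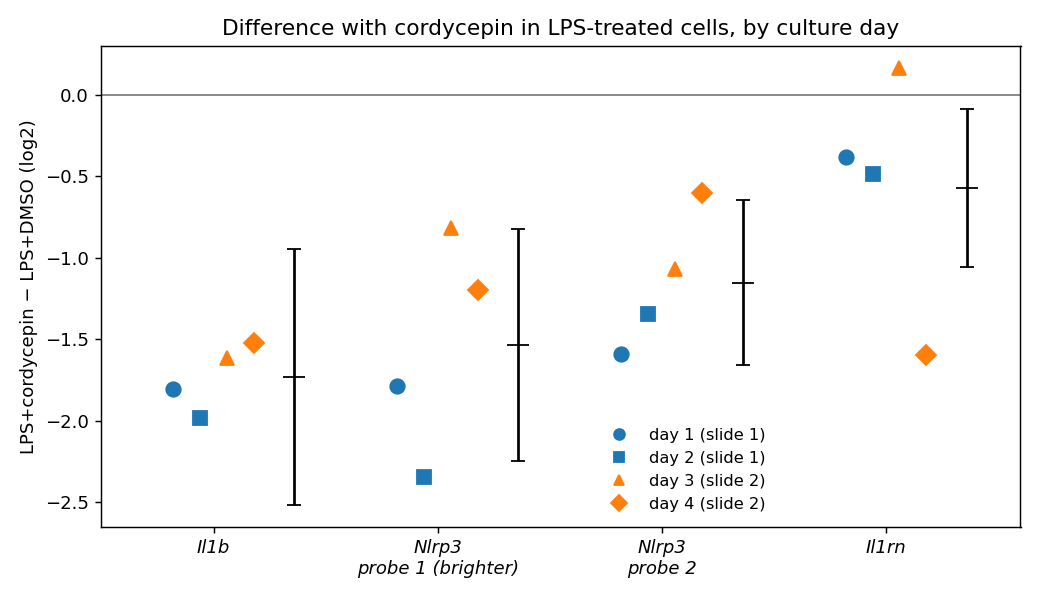
Difference between LPS+cordycepin and LPS+DMSO on each culture day (vertical axis, log2 scale) for Il1b, both Nlrp3 probes and Il1rn; colours mark the slide, and the black dash with its bar is the fitted change with its 95% confidence interval. All 4 days lie below 0 for Il1b and for both Nlrp3 probes, and the Nlrp3 differences are larger on slide 1, while Il1rn ranges from -1.59 to 0.16.

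Il1rn, which encodes the natural receptor antagonist, responded less to LPS. Its signal was 7.38, 6.66, 7.27 and 7.09 in DMSO and 8.60, 8.76, 8.14 and 9.46 in LPS+DMSO. These groups did not overlap, and LPS raised Il1rn by 1.64 (standard error 0.23, 95% confidence interval 1.16 to 2.12, adjusted p = 9.55e-05, limma), 3.12-fold. In LPS+cordycepin the signal was 8.22, 8.28, 8.30 and 7.86, which overlapped with LPS+DMSO because LPS+DMSO replicate 3 was low. The change with cordycepin was -0.57 (95% confidence interval -1.06 to -0.09, adjusted p = 0.0993, limma), below 0 on 3 of 4 days and from -1.59 to 0.16 within a day.

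Without LPS, Il1rn was 7.67, 7.41, 7.81 and 7.55 in cordycepin, every value above those in DMSO. The difference of 0.51 (95% confidence interval 0.03 to 0.99) had an adjusted p of 0.152 (limma). In cordycepin-treated cells, LPS changed Il1rn by 0.55 (95% confidence interval 0.07 to 1.04, adjusted p = 0.188, limma). The order was thus DMSO, cordycepin, LPS+cordycepin and LPS+DMSO. None of the neighbours in that order passed the threshold, whereas the ends of it did.

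**Figure D2:**
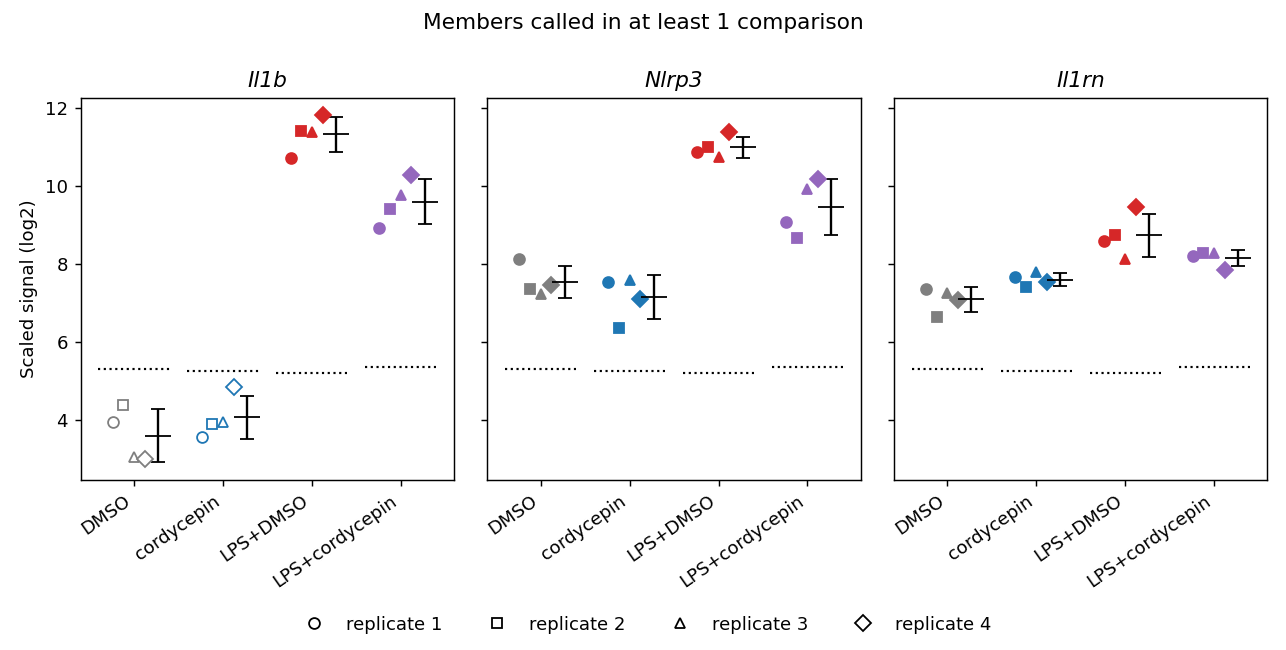
Scaled log2 signal (vertical axis) of Il1b, Nlrp3 (brighter probe) and Il1rn on each of the 16 arrays by condition; symbols mark the replicate number, open symbols are not well above background, black dashes with bars are mean ± SD (n = 4), and dotted lines are the mean of the dimmest signals well above background. Il1b is near or under the dotted line without LPS and between 8.93 and 11.82 with it, and for Il1b and Nlrp3 all LPS+cordycepin points lie below all LPS+DMSO points.

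Whether LPS responses differed with and without cordycepin was asked by the interaction, the log2 response in cordycepin less that in DMSO. It was called for 0 of 7 members, where 0.365% of all genes were called (limma). At an unadjusted p under 0.05 it passed for 3 members, Il1b, Nlrp3 and Il1rn, where 7.65% of all genes did. Nlrp3 had an interaction of -1.15 (95% confidence interval -2.15 to -0.15, adjusted p = 0.522, limma), from -1.35 to -0.86 within a day. For Il1rn it was -1.09 (95% confidence interval -1.77 to -0.41, adjusted p = 0.198, limma), below 0 on 4 of 4 days. For Il1b it was -2.20 (95% confidence interval -3.31 to -1.10, adjusted p = 0.0822, limma), but this value takes in the signals without LPS, which were not well above background. Without DMSO replicate 2 the Il1b interaction was called (-2.46, adjusted p = 0.0381, limma). Cordycepin without LPS had an unadjusted p under 0.05 for 1 member, Il1rn, where 27.9% of all genes did.

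The remaining cytokine genes gave no called change. Il18, made by macrophages without stimulation, was well above background on all arrays, and its 16 values lay between 9.71 and 10.32. Its change was between -0.12 and 0.13 in the comparisons of condition pairs, with confidence limits from -0.37 to 0.38 (adjusted p from 0.545 to 0.724, limma). A 2-fold change lay outside these limits. Il1a was not well above background on any array, with signals from 2.34 to 4.19, so no fold is given and its response to LPS was not measurable here.

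The receptor chain gene Il1rap was not tested either. Its probe for transcript NM_134103 was well above background on 5 of 16 arrays, all of them on slide 2 and at least 1 in each condition, and its signals were 2.96 to 5.76. The probes for the other transcripts were not well above background on any array.

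The proteases and the adaptor were above background in all conditions and were not called in any comparison. Casp1 was 13.53, 14.24, 13.65 and 13.54 in DMSO and 13.43, 13.49, 13.51 and 13.29 in LPS+DMSO. Every LPS+DMSO value was below every DMSO value, by a log2 change of -0.31 (95% confidence interval -0.60 to -0.02, adjusted p = 0.155, limma) that became -0.15 (adjusted p = 0.356) without DMSO replicate 2. With cordycepin, Casp1 changed by 0.16 in LPS-treated cells and by -0.10 without LPS, and both intervals took in 0. Without DMSO replicate 2 the latter was 0.06 (adjusted p = 0.732, limma).

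Casp4 was 12.53, 14.37, 12.42 and 12.09 in DMSO and 13.21, 13.12, 13.21 and 12.75 in LPS+DMSO. The signal of DMSO replicate 2 was high on both overlapping probes (14.37 and 14.04), above every other array of the series. With that array, LPS changed Casp4 by 0.22 (95% confidence interval -0.53 to 0.98, adjusted p = 0.79, limma). Without it the change was 0.73 (standard error 0.17, adjusted p = 0.00715, limma), which was past the adjusted p but short of 2-fold. In the presence of cordycepin, where that array plays no part, the LPS change was 0.41 (95% confidence interval -0.34 to 1.17, adjusted p = 0.646, limma), above 0 on 4 of 4 days and between 0.37 and 0.50 within a day. Its wide interval rests on a spread estimated over all conditions, DMSO included. Cordycepin in LPS-treated cells changed Casp4 by -0.04 (95% confidence interval -0.79 to 0.72). Without LPS its change with cordycepin was -0.23, and 0.28 without DMSO replicate 2 (adjusted p = 0.313, limma). Over the comparisons of condition pairs the intervals ran from -0.98 to 1.17, so a 2-fold change was not outside them.

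Pycard was well above background on all 16 arrays, with signals between 7.07 and 8.42. These are RNA signals of a gene whose protein the line is described as lacking. The means were 7.72 ± 0.13 (DMSO), 7.55 ± 0.13 (cordycepin), 7.85 ± 0.14 (LPS+DMSO) and 7.73 ± 0.56 (LPS+cordycepin, SD, n = 4). The last group held both the lowest and the highest value of the gene. No comparison of condition pairs moved it by more than 0.18, and the adjusted p was 0.647 to 0.795 (limma).

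**Figure D3:**
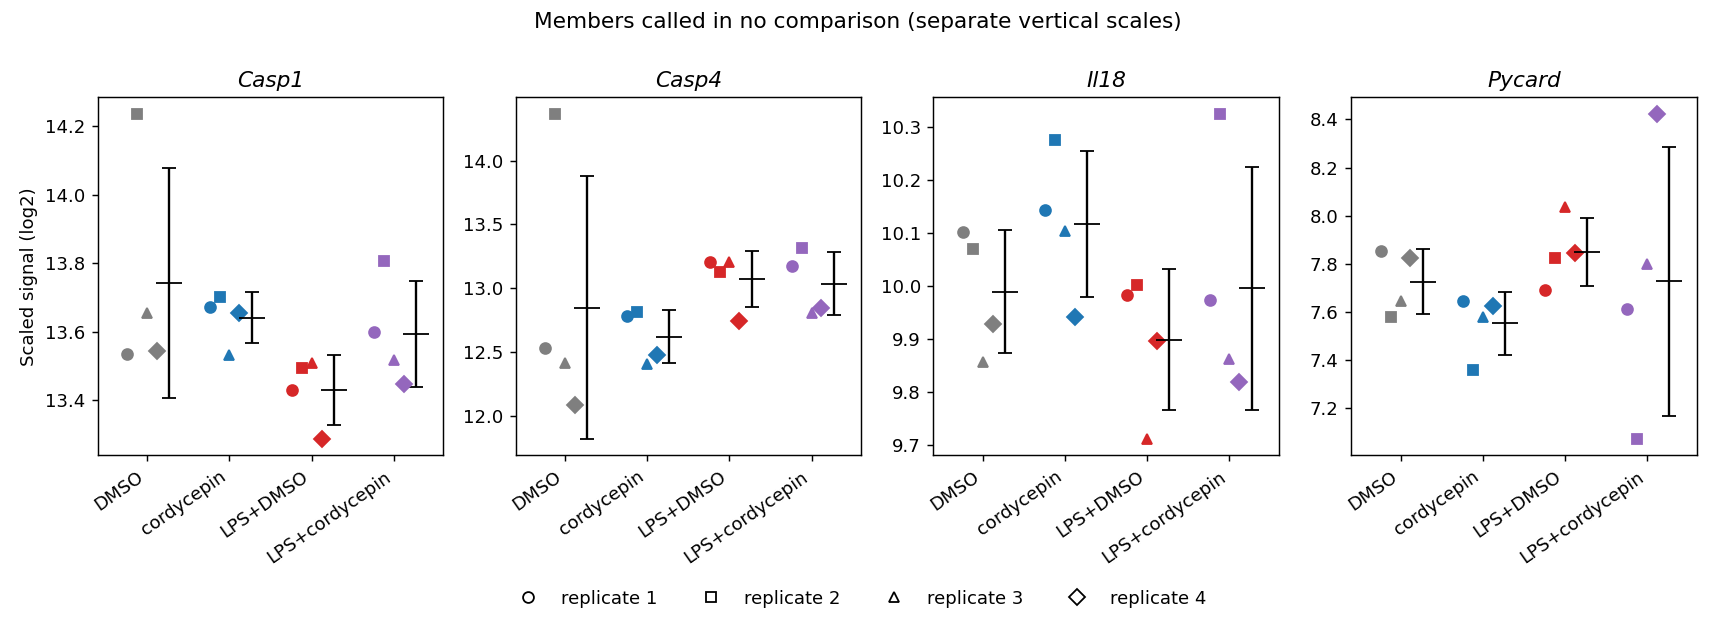
Scaled log2 signal (vertical axes, which differ between panels and do not start at 0) of Casp1, Casp4 (brighter probe), Il18 and Pycard on each of the 16 arrays by condition, all well above background; symbols mark the replicate number and black dashes with bars are mean ± SD (n = 4). DMSO replicate 2 stands high for Casp4 (14.37) and Casp1 (14.24), and LPS+cordycepin spans the whole range of Pycard, 7.07 to 8.42.

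**Figure D4:**
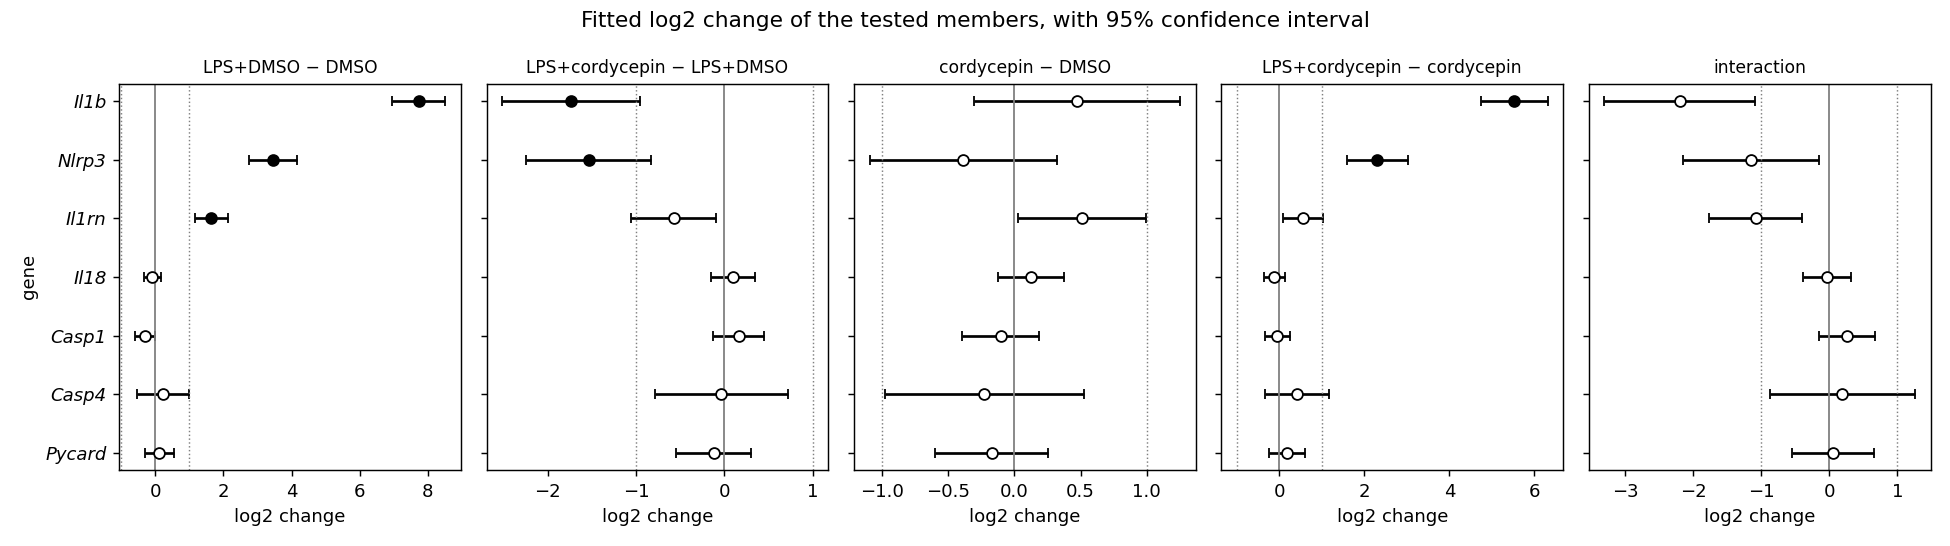
Fitted log2 change (horizontal axis, 1 panel per comparison, with separate scales) of the 7 tested members, with 95% confidence intervals; filled points are called, and dotted lines mark a 2-fold change. Calls are seen for Il1b, Nlrp3 and Il1rn only, and among Il18, Casp1, Casp4 and Pycard the interval of Casp4 is the widest throughout.

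For the members that LPS raised, the profiles over the 16 arrays are given as a description, since genes chosen for a rise with LPS will tend to resemble each other over arrays that differ in LPS. Of the 16 Il1b values, 8 were not well above background. Pearson's r was 0.94 between Il1b and Nlrp3, 0.84 between Il1b and Il1rn and 0.84 between Nlrp3 and Il1rn, over arrays that share conditions, days and slides. Among the 11602 tested genes with a symbol, the profiles most like Il1b were those of Nfkbiz, Tnf and Cflar (r = 0.99 each). For Nlrp3 they were Dusp16 (0.98), Plk2 (0.98) and Plaur (0.97), and for Il1rn they were Cd14 (0.93), Rcan1 (0.93) and Sat1 (0.92).

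The promoters of the members were read from RefSeq (GRCm38.p6), which holds 13 start sites for the 9 genes, each with 250 bases before and 50 after the start. They were searched on both strands for TATAAA (a core promoter box), GGGANTT (the opening letters of many NF-kB sites) and TGANTCA (a form of the AP-1 site), which were present in 13.6%, 16.5% and 7.81% of all 32851 promoters. TATAAA was found in Il1a, Il1b, Il18 and Il1rn, GGGANTT in Il1a, Il1b, Nlrp3 and Casp4, and TGANTCA in Il1a and Il1rn. The TATAAA matches of Il1a and Il1b began at -32 and -31 from the start, on the strand of the gene. Those of Il18 (at -175) and Il1rn (at 15, past the start) were on the opposite strand. In Il1rn, TATAAA and TGANTCA were matched at different start sites. The NF-kB letters replaced a longer form, searched first, that had matched Casp4 and Il1rn, so they were chosen after matches had been seen and which members match depends on the letters used. The windows of Casp1, Pycard and Il1rap held none of these letters. Each match of a gene that LPS raised was also present in a gene that it did not raise or that was not measurable. The last 180 bases before the start are shown for Il1b, for 1 start each of Nlrp3 and Il1rn as genes that LPS raised, and for 1 start of Casp4 as a gene not called in any comparison that shares GGGANTT, with the matches in capitals.
Il1b, chr2:129371140-129371319, minus strand: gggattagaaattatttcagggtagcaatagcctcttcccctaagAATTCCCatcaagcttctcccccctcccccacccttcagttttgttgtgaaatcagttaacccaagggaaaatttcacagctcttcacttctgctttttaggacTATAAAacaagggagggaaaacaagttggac
Nlrp3, chr11:59541389-59541568, plus strand: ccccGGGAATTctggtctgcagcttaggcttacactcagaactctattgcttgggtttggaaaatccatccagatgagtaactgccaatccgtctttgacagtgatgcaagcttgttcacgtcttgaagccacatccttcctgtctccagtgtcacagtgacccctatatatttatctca
Il1rn, chr2:24336680-24336859, plus strand: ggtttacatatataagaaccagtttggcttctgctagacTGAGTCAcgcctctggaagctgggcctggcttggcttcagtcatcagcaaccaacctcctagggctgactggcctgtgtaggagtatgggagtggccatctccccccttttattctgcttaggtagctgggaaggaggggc
Casp4, chr9:5308669-5308848, plus strand: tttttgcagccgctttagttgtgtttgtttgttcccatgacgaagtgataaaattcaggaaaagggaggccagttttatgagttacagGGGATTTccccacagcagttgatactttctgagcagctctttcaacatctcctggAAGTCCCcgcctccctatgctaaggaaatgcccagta

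A further 50 genes of the same system were followed, of which 36 were tested. Of these, LPS in DMSO called 1 raised (Gbp2, near background in DMSO) and 1 lowered (Txnip), against 2.09% and 2.49% of all genes, and the median change was -0.12 against -0.04 over all genes (limma). With no minimum fold, LPS in DMSO passed an adjusted p under 0.05 for 2 raised and 7 lowered genes of the 36. The raised were Gbp2 and Tollip, the lowered Il18bp, Naip2, Nlrp1b, Panx1, Sigirr, Tab1 and Txnip. Of all 15877 genes, 2372 passed in this way, 816 raised and 1556 lowered (limma). DMSO replicate 2 was included in these fits. Cordycepin in LPS-treated cells changed 0 of the 36 past the threshold, where 7.46% of all genes were called (limma). That share was lower among brighter genes, with 524 of 13760 called when only signals well above background on all arrays were kept. The median over the 36 was 0.03 against 0.03 over all genes. At an unadjusted p under 0.05 there were 7 of the 36, where 28.1% of all genes passed. Without the minimum of 2-fold, an adjusted p under 0.05 was met there by 3 of the 36, Tab1 and Naip6 below 0 and Gbp5 above it, where 19.2% of all genes met it.

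By role, 1 of 7 other ligands and decoys was bright enough to be tested, Il18bp, which encodes the protein that neutralises Il18. Its change with LPS was -0.45 (adjusted p = 0.0239, limma), short of 2-fold. Il33 and the genes of the Il36 group were not tested. Of 7 receptor genes 3 were tested and none was called, and Il1r1, the signalling receptor, was not among them. All 11 genes listed under signal transduction, the path from MYD88 to TAK1 used by interleukin 1 and the LPS receptor, were tested and none was called. Tab1, a partner of TAK1, changed by -0.72 with LPS (adjusted p = 2.29e-06, limma) and by -0.48 with cordycepin in LPS-treated cells (adjusted p = 6.95e-05, limma), both short of 2-fold. Without LPS, cordycepin changed Tab1 by -0.42 (adjusted p = 0.000388, limma), and its interaction was -0.07 (adjusted p = 0.955, limma).

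Nlrp3 was the only sensor called. Of 13 further sensor genes 9 were tested. Their LPS changes ran from -0.63 for Nlrp1b (adjusted p = 0.0143, limma, short of 2-fold) to 0.07 for Aim2, the sensor of DNA in the cytosol. Naip6, of a family that senses bacterial proteins, changed with cordycepin by -0.40 in LPS-treated cells (adjusted p = 0.00294, limma) and by -0.84 without LPS (adjusted p = 4.26e-06, limma). The executioner genes Gsdmd, Gsdme and Ninj1, which act in the rupture of the membrane, changed by -0.05, -0.41 and -0.15 with LPS, none of them called (limma). Among 9 regulators, Txnip, which encodes a thioredoxin-binding protein reported to bind NLRP3, was 12.44 ± 0.24 in DMSO and 10.91 ± 0.32 in LPS+DMSO (SD, n = 4). Its change with LPS was -1.53 in DMSO (adjusted p = 3.88e-06, limma) and -1.40 in the presence of cordycepin (adjusted p = 1.62e-05, limma). Gbp2, a guanylate-binding protein of the interferon response, was well above background on 1 of 4 DMSO, 1 of 4 cordycepin, 3 of 4 LPS+DMSO and 4 of 4 LPS+cordycepin arrays, and it passed into the test only through LPS+cordycepin. Its fitted changes with LPS, 1.69 in DMSO (adjusted p = 0.0303, limma) and 2.53 in the presence of cordycepin (adjusted p = 0.00357, limma), were therefore set mostly against background. Over the settings tried they ran from 0.58 to 2.45 and from 1.00 to 2.92, and 14 of 38 settings did not call the change in DMSO. Neither Txnip nor Gbp2 was called for cordycepin in LPS-treated cells, with changes of -0.01 (adjusted p = 0.991) and 0.32 (adjusted p = 0.751, limma).

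**Figure D5:**
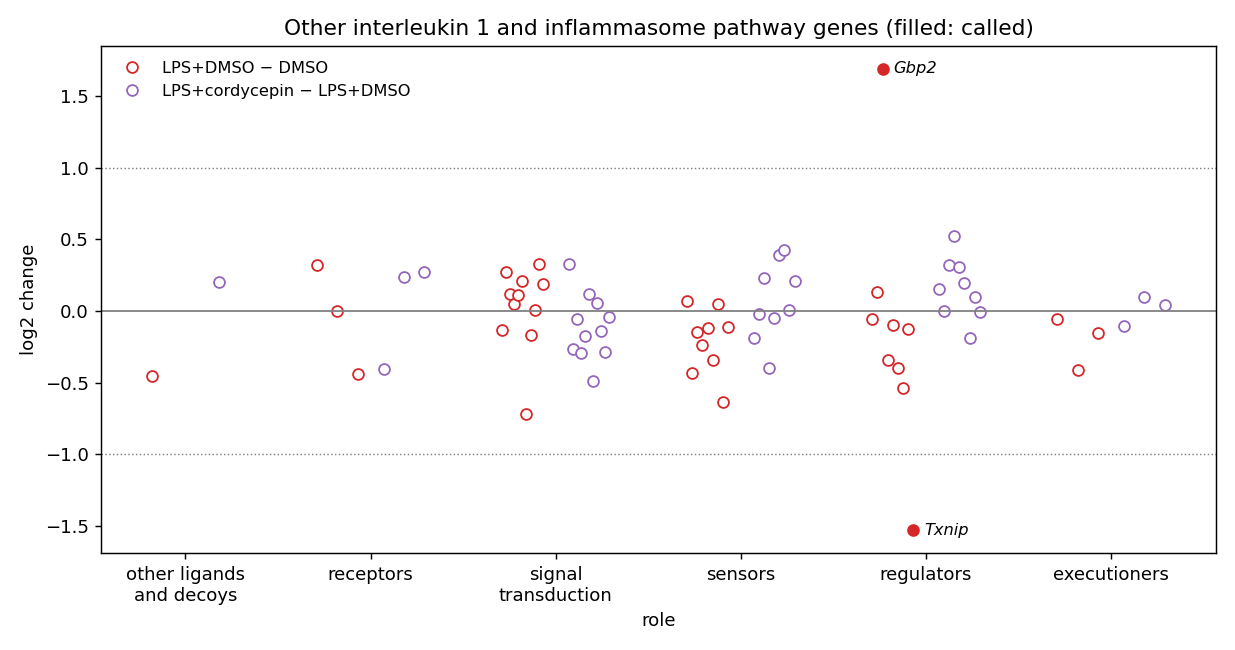
Log2 change (vertical axis) of the 36 other tested genes of the pathway by role (horizontal axis), with LPS in DMSO in red and cordycepin in LPS-treated cells in purple; filled points are called and dotted lines mark 2-fold. Gbp2 (1.69) and Txnip (-1.53) are the 2 filled points, both for LPS.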

How the data were processed

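Total RNA of 16 RAW264.7 cultures was labelled with Cy3 and hybridised to 1-colour Agilent mouse arrays. Per the labels, the submitters' processing notes name Agilent Feature Extraction (version 10.10.1.1) and limma. The deposited scanner files hold, per spot, an intensity after subtraction of background and spatial trend. The authors also deposited a table of log2 values, normalized between arrays by a method not given in the sources used here, which served as an alternative.

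From the scanner files, the log2 processed intensity was taken, outlier spots were dropped, and spots of a probe were averaged. Arrays were brought to a common 75th percentile, taken over the 18063 probes that passed the background test on all of them. A probe was tested if some condition had it well above background on all 4 of its arrays (21597 probes), and a gene was read by its brightest probe (15877 genes). One limma 3.58.1 (R 4.3.3) model with a mean per condition used all arrays, Benjamini-Hochberg adjustment covered all genes tested, and the fit was tested on simulated data. The number of arrays limits the precision. The study's methods name a t-test for comparisons with controls in general and give no test particular to the arrays, so that test was run as an alternative.

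Members and gene lists were chosen with earlier results of these data known. Named were all members, the called genes of the pathway list and the 3 genes most like each called member. Other genes, Nlrp1b, Aim2, Tab1, Naip6, Gbp5, Il18bp and the executioner genes among them, were named after their values were seen.

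The replicate number pairs the arrays, since the labels tie it to a culture day. The mean correlation of residuals was 0.20 (-0.06 to 0.44) for arrays of one number, 0.18 for different numbers sharing a slide and -0.19 across slides. Alternatives were other scalings, backgrounds, filters, blocks, thresholds and tests, and leaving out each replicate or array. Python 3.11.15, numpy 2.4.6, pandas 2.3.3 and matplotlib 3.10.9 were used.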

Additional observations from a re-analysis of the deposited data

How the results depend on the processing

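Over 18 other settings and 20 fits that left out a replicate number or 1 array, the calls of Nlrp3 (LPS in DMSO 2.77 to 3.69, cordycepin with LPS -1.78 to -1.27, LPS in cordycepin 1.76 to 2.57) and of Il1rn (LPS in DMSO 1.06 to 1.90) held in each setting. The calls of Il1b held in each setting that tested it (LPS in DMSO 4.67 to 8.05, LPS in cordycepin 3.04 to 5.84, cordycepin with LPS -1.96 to -1.51, adjusted p 4.48e-05 to 0.0277, limma). A filter for signals well above background on all arrays left Il1b out, so that cordycepin with LPS and LPS in cordycepin then called 1 member each. The interaction called 1 member, Il1b, with the 75th percentile over all probes (-2.27, adjusted p = 0.0433), with the authors' values (-1.77, adjusted p = 0.0162) and, among the fits that left out arrays (0 to 1 called), without DMSO replicate 2. With the replicate block the pairing by day changed no call of a member (3, 2, 0, 2 and 0 called in the order LPS in DMSO, cordycepin with LPS, cordycepin without LPS, LPS in cordycepin and interaction), and the Il1b interaction had an adjusted p of 0.0526 (limma). Over all genes, that block called 109 interactions rather than 58. The adjusted p of Il1rn for cordycepin with LPS ranged from 0.018 to 0.544 (limma), always short of 2-fold. Uncalled changes of Casp1, Casp4, Il18 and Pycard crossed 0 in 36 values, none over 0.32 in size. Scaling to 7 spiked-in control probes moved the median of all genes to -0.36 for LPS in cordycepin, -0.13 for LPS in DMSO and -0.12 for cordycepin with LPS. The changes of Nlrp3 there were 1.99, 3.36 and -1.69. Signals near background limit Il1a, Il1rap and Il1b without LPS.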
